A study of Mus musculus with 60 samples.

Results

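The comparison concerned donor CD4 T cells that lacked both STAT3 and PD-1 (STAT3koPD-1ko) against donor CD4 T cells that lacked STAT3 alone (STAT3ko), as seen through their T cell receptor (TCR) repertoires in liver and gut on day 6 after allogeneic hematopoietic cell transplantation (HCT). Its members were the 16 of 60 samples with these genotypes, the CD4 label and a day 6 tissue label. They comprised 8 samples in the table of TCR alpha (TCRA) sequences and 8 in the table of TCR beta (TCRB) sequences, with 4 per genotype in each table (liver and gut, numbers 1 and 2). Lethally irradiated WT BALB/c recipients had been given T cell-depleted marrow of WT C57BL/6 mice together with CD90.2+ T cells of STAT3ko or STAT3koPD-1ko C57BL/6 donors. Donor cells were sorted as H-2Kb+TCRβ+CD4+, and every sample pooled the lymphocytes of 3 recipients. STAT3 had been deleted with a floxed allele and a Cre recombinase driven by the CD4 promoter, which acts in the thymus in all cells that go on to become CD4 or CD8 T cells. PD-1 was absent from the germline, so that it was missing both while the repertoire formed in the thymus and after transplantation. The ages of the mice are not given in the labels, and the tables hold no expression values by which either deletion could be checked. WT donor libraries of the same table and the libraries labelled before HCT, from spleen, are given beside the comparison where they help to read it.

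A TCR is assembled in the thymus by joining gene segments. The beta chain joins a V, a D and a J segment, and the alpha chain joins a V and a J segment. The junction forms complementarity determining region 3 (CDR3), the loop that lies over the peptide in the MHC groove. At the alpha locus, joining starts between V and J segments that lie near each other, and a cell can replace a first join with later ones that use J segments farther downstream, until positive selection or death ends the process. STAT3 carries signals of IL-6, IL-21 and related cytokines. PD-1 is an inhibitory receptor that is expressed on developing thymocytes during selection and on activated T cells, and that binds PD-L1 and PD-L2. The question the comparison answers is whether the loss of PD-1, on top of the loss of STAT3, went with another CD4 repertoire in the target tissues of graft-versus-host disease.

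Each deposited value was a fraction of a library's reads, and no table gave a read count, which leaves the depth unknown. Only clonotypes (identical CDR3 residues with an identical V and J) found in at least 2 libraries were listed, 62533 in TCRA and 85775 in TCRB. The listed share of reads was between 92.5% and 97.6% in TCRA and between 81.6% and 93.5% in TCRB for every library but gut number 2, where it was 83.5% and 83.3% in TCRA and 49.1% and 51.5% in TCRB for STAT3ko and STAT3koPD-1ko. All usages below are percentages of listed reads. A fraction of reads reflects both the number of cells and the TCR transcripts per cell, and these cannot be told apart. The libraries of a genotype were not equally independent. The overlap of a pair of libraries was taken by adding up, for each shared clonotype, whichever frequency was lower. By this measure gut number 1 shared 20.8% and 23.1% of TCRB with the liver libraries of STAT3ko and 19.9% and 20.1% with those of STAT3koPD-1ko, whereas liver numbers 1 and 2 shared 7.05% and 6.42%. The spleen library shared 39.04% and 52.0% of TCRB with liver number 1 of STAT3ko and STAT3koPD-1ko, although it is labelled as taken before HCT. The cause of this overlap was not tested. Whether the labels of the spleen and of the liver number 1 libraries are right cannot be told from these values. The study describes 2 batches of pooled mice, so the liver and gut libraries of a genotype may come from the same mice, in which case p-values over 4 libraries are too small. Because of the shared clonotypes, J usage was also tested without the gut number 1 and without the liver number 1 libraries, and the spleen libraries enter no test.

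The J segments of TCRA separated the genotypes. Of the 40 TRAJ segments used at 0.5% or more on average, 6 (15%) passed the test, 4 (10%) higher and 2 (5.00%) lower in STAT3koPD-1ko than in STAT3ko (limma on log2 of percent + 0.1, Benjamini-Hochberg adjusted p below 0.05, 4 libraries per genotype, 9 segments at an unadjusted p below 0.05). TRAJ58, TRAJ57, TRAJ56 and TRAJ53, which rose, lie at the upstream end of the J alpha array, the end nearest to the V segments. TRAJ18 and TRAJ7, which fell, lie in its downstream part. The germline sequences of the 6 segments are shown because they carry the difference. They were read from the GENCODE annotation of GRCm38 (the mm10 build that the submitters' processing notes name), all on the plus strand of chromosome 14, and capitals mark the 12 bases that encode the J motif F/L-G-X-G, which starts at the last residue of the CDR3.
TRAJ58 (chr14:54157280-54157342): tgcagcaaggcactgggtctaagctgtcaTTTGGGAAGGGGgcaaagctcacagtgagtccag
TRAJ57 (chr14:54158507-54158569): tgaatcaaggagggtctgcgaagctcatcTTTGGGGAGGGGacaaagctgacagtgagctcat
TRAJ56 (chr14:54159263-54159325): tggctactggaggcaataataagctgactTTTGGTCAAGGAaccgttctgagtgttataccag
TRAJ53 (chr14:54162644-54162709): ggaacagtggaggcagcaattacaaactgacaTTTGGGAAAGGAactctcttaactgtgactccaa
TRAJ18 (chr14:54200777-54200842): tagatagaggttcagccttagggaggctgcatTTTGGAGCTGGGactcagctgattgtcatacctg
TRAJ7 (chr14:54211470-54211528): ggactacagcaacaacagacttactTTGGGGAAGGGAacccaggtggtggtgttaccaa

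TRAJ53 had the lowest p. Its usage in the STAT3ko libraries was 1.35% and 1.05% in liver and 1.17% and 1.09% in gut, and in the STAT3koPD-1ko libraries 1.86% and 1.75% in liver and 1.61% and 1.56% in gut. Every STAT3koPD-1ko library lay above every STAT3ko library, with a log2 fold change of 0.51 ± 0.09 (SE) and a limma adjusted p of 0.00232. The WT mean was 1.19%.

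TRAJ58, the first segment of the array among those tested, made up 0.8287%, 1.05%, 0.743% and 0.796% of the STAT3ko libraries (liver 1, liver 2, gut 1, gut 2) and 1.21%, 1.19%, 1.22% and 1.11% of the STAT3koPD-1ko libraries. The groups did not overlap (log2 fold change 0.43 ± 0.10, limma adjusted p = 0.00623). TRAJ57, in the same order, was used at 1.802%, 1.72%, 1.72% and 1.93% by STAT3ko and at 2.62%, 2.49%, 2.27% and 2.26% by STAT3koPD-1ko, again without overlap (0.41 ± 0.10, limma adjusted p = 0.00623). TRAJ56 was used at 1.92%, 1.84%, 2.23% and 2.54% by STAT3ko and at 2.72%, 2.70%, 3.71% and 2.77% by STAT3koPD-1ko (0.46 ± 0.10, limma adjusted p = 0.00623). The value of gut number 1 stood apart from the other STAT3koPD-1ko values of TRAJ56, and there a leading clonotype held 0.743% of reads, which was 19.995% of the segment. Without that library the log2 fold change of TRAJ56 was 0.39 (limma adjusted p = 0.0174).

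In sum, these 4 segments made up 5.94% ± 0.29 of STAT3ko and 8.26% ± 0.47 of STAT3koPD-1ko libraries (SD, n = 4 each), and 5.67% ± 0.37 of WT libraries. The STAT3ko sums ran from 5.65% to 6.35% and the STAT3koPD-1ko sums from 7.70% to 8.81%. The segments had been chosen by their usage in the same libraries, so this separation follows in large part from that choice. The spleen libraries held 6.23% in STAT3ko, 7.57% in STAT3koPD-1ko and 4.72% in WT.

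TRAJ18 is the segment of invariant natural killer T (iNKT) cells when it is joined to TRAV11, and it is also used by other T cells. It made up 2.05%, 2.20%, 1.75% and 2.19% of the STAT3ko libraries and 1.29%, 1.59%, 1.62% and 1.54% of the STAT3koPD-1ko libraries, without overlap (−0.41 ± 0.11, limma adjusted p = 0.0119). TRAV11 joined to TRAJ18 took 0.0604%, 0.0853%, 0.0219% and 0.0272% of the STAT3ko libraries and 0.00723%, 0.0207% and 0.0206% of the first 3 STAT3koPD-1ko libraries, and was listed at 0 in gut number 2. These shares were small beside those of the whole segment. The pair of mucosal-associated invariant T cells, TRAV1 joined to TRAJ33, reached at most 0.00419% of any of these libraries.

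TRAJ7 was used at 1.39%, 1.57%, 1.92% and 2.47% by STAT3ko and at 0.919%, 1.24%, 1.29% and 1.93% by STAT3koPD-1ko. In each tissue and number the STAT3koPD-1ko library was the lower, but the groups overlapped (−0.44 ± 0.13, limma adjusted p = 0.0269).

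**Figure D1:**
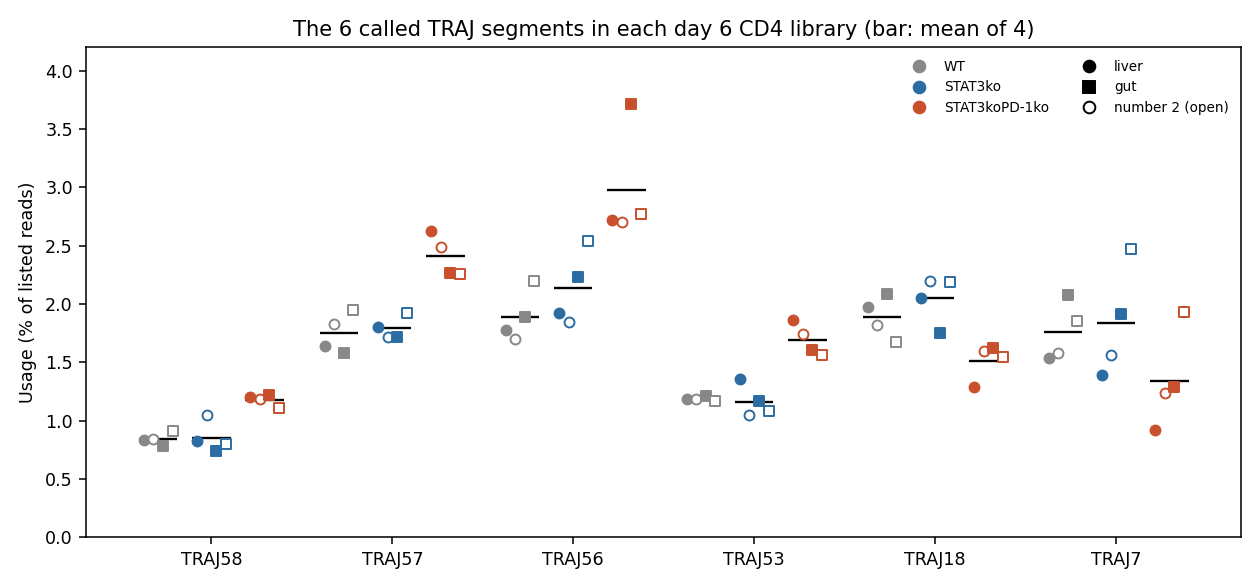
Usage of the 6 called TRAJ segments, in percent of listed reads, in each day 6 CD4 TCRA library, with circles for liver, squares for gut, open symbols for number 2 and a bar at each genotype's mean over its 4 libraries. For TRAJ58, TRAJ57, TRAJ56 and TRAJ53 every STAT3koPD-1ko value lies above every STAT3ko value, for TRAJ18 every value lies below, and for TRAJ7 the groups overlap.

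The differences followed the position of the segments. Among the 14 tested segments numbered 40 and above, 11 had a positive log2 fold change, 4 were called higher and the median was 0.17. Among the 15 numbered 20 to 39, 5 were positive, none was called (1 at an unadjusted p below 0.05, limma) and the median was −0.04. Among the 11 numbered below 20, 9 were negative, 2 were called lower and the median was −0.11, whereas over all 40 segments the median was −0.02. In reads, segments numbered 40 and above made up 24.9% ± 1.06 of STAT3ko, 28.5% ± 1.92 of STAT3koPD-1ko and 23.0% ± 0.34 of WT libraries (SD, n = 4 each). Segments numbered below 20 made up 24.4% ± 0.99, 21.7% ± 1.78 and 26.1% ± 0.61. Over the 40 segments, which span 59.0 kb and share the libraries they were measured in, the log2 fold change and the distance along the array had a Pearson r of −0.72 and a Spearman rho of −0.66, given as a description because usages of 1 library sum to a fixed total.

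**Figure D2:**
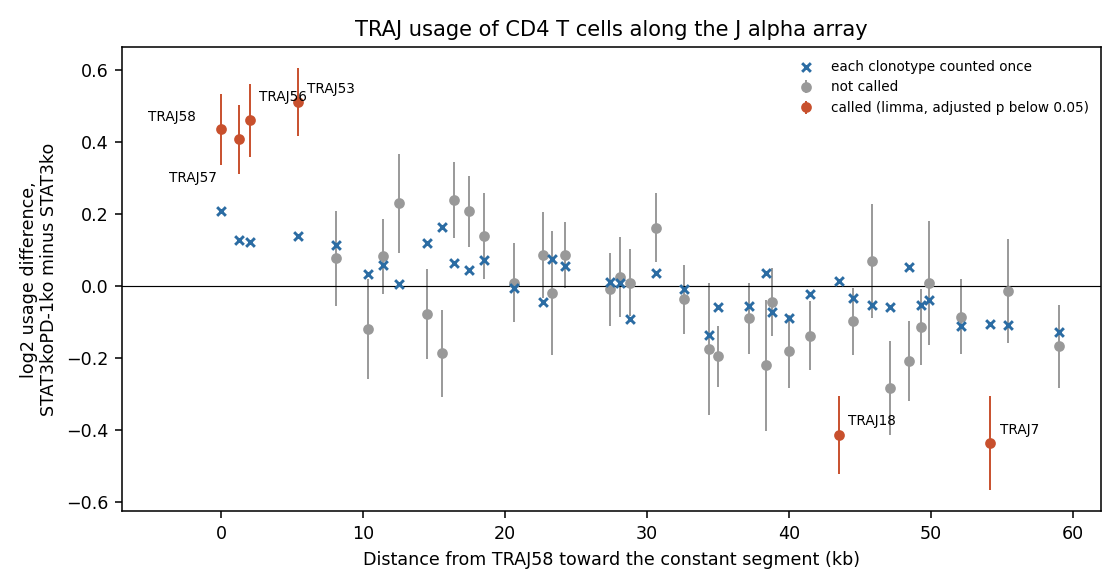
Log2 fold change of TRAJ usage (STAT3koPD-1ko minus STAT3ko, points with SE from limma, n = 4 libraries per genotype) against the distance in kb from TRAJ58 toward the constant segment, with orange points for the 6 called segments. Blue crosses give the same difference with each listed clonotype counted once, and both sets decline from the upstream to the downstream end.

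The mean TRAJ number of a library, weighted by reads, put the shift into 1 value. It was 30.1, 29.4, 29.8 and 29.3 in the STAT3ko libraries and 31.9, 30.7, 31.2 and 30.4 in the STAT3koPD-1ko libraries. All STAT3koPD-1ko values lay above all STAT3ko values, and the means differed by 1.43. The exact two-sided permutation test within tissue gave p = 0.0556, the smallest that its 36 arrangements allow, and an adjusted p of 0.980 over 20 measures, so that this design could not reach the threshold. The WT libraries ran from 28.6 to 29.0, and the spleen libraries were at 29.5 in STAT3ko, 31.5 in STAT3koPD-1ko and 28.2 in WT.

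**Figure D3:**
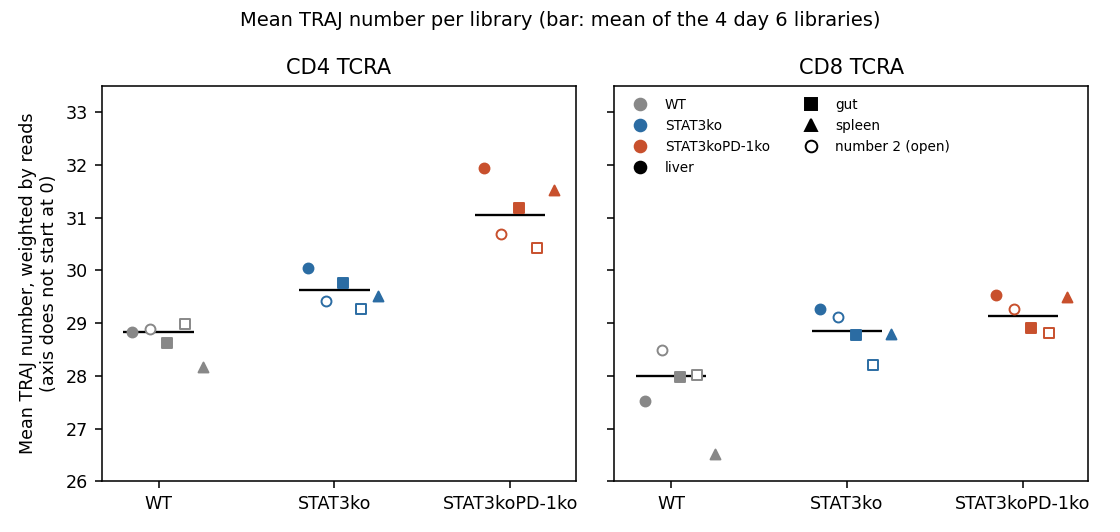
Mean TRAJ number per library, weighted by reads, in CD4 (left) and CD8 (right) TCRA, with circles for liver, squares for gut, triangles for the spleen libraries labelled before HCT, open symbols for number 2 and a bar at the mean of the 4 day 6 libraries. In CD4 the STAT3koPD-1ko libraries lie above all others, whereas in CD8 they overlap with STAT3ko, although each is the higher at its tissue and number.

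In the CD8 table of the same transplants the mean TRAJ number was 29.3, 29.1, 28.8 and 28.2 in STAT3ko and 29.5, 29.3, 28.9 and 28.8 in STAT3koPD-1ko, a difference of 0.29 (exact two-sided permutation p = 0.111), with the STAT3koPD-1ko library the higher in 4 of 4 tissues and numbers. The CD8 spleen libraries were at 28.8 in STAT3ko, 29.5 in STAT3koPD-1ko and 26.5 in WT. None of 41 CD8 TRAJ segments was called (limma, 3 at an unadjusted p below 0.05, lowest adjusted p = 0.387), and the log2 fold changes of the 6 segments there were 0.21 for TRAJ53, 0.26 for TRAJ56, −0.10 for TRAJ57, −0.07 for TRAJ58, 0.06 for TRAJ18 and −0.19 for TRAJ7. Whether CD4 and CD8 differed in this respect was not tested.

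The TRAJ calls depended on how abundant clonotypes were weighted. With each listed clonotype counted once, none of 43 segments was called (limma, 5 at an unadjusted p below 0.05), the log2 fold changes of the 4 upstream segments were between 0.12 and 0.21, and that of TRAJ18 was 0.01. The 4 upstream segments then made up 7.36%, 7.40%, 7.41% and 7.35% of the listed clonotypes of STAT3ko and 8.77%, 7.97%, 8.33% and 7.71% of those of STAT3koPD-1ko, without overlap. They had been chosen by their read usage in the same libraries, so their separation may follow in part from that choice and is given as a description. Pearson r with the distance along the array was −0.80 on this scale. Without the 100 leading clonotypes of each library, TRAJ53, TRAJ58 and TRAJ7 were called (limma adjusted p = 0.00502, 0.0284 and 0.00759), and the log2 fold changes of TRAJ56, TRAJ57 and TRAJ18 were smaller, at 0.24, 0.24 and −0.24. Without the gut number 1 libraries of all genotypes, TRAJ53 and TRAJ18 were called (limma adjusted p = 0.0220 each). The log2 fold changes of the others were then 0.38 for TRAJ56, 0.42 for TRAJ57, 0.36 for TRAJ58 and −0.40 for TRAJ7. Without the liver number 1 libraries of all genotypes, TRAJ53 alone was called (limma adjusted p = 0.00991), and the log2 fold changes were 0.53 for TRAJ53, 0.45 for TRAJ56, 0.37 for TRAJ57, 0.41 for TRAJ58, −0.34 for TRAJ18 and −0.40 for TRAJ7. TRAJ53 was the only 1 of the 6 that passed in every setting but the count of clonotypes. TRAJ18 was lost without STAT3ko liver 2 (log2 fold change −0.38, limma adjusted p = 0.0557) and without STAT3koPD-1ko liver 1 (−0.33, adjusted p = 0.0560). TRAJ7 was lost without these libraries (limma adjusted p = 0.0951 and 0.120), without STAT3ko gut 2 (0.108) or STAT3koPD-1ko gut 1 (0.135), and with no filter on low values (0.0629), with log2 fold changes from −0.44 to −0.35 in these settings. The 4 upstream segments stayed called whichever of the 8 libraries was left out.

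Single V-J pairs of TCRA did not pass the test. None (0%) of 243 pairs used at 0.1% or more on average was called (limma, 25 at an unadjusted p below 0.05, lowest adjusted p = 0.350). Of the 12 tested pairs that held TRAJ58, TRAJ57, TRAJ56 or TRAJ53, 10 had a positive log2 fold change, with a median of 0.37. Of the 5 that held TRAJ18 or TRAJ7, all 5 were negative, with a median of −0.44. The segments had been chosen by their usage in the same libraries, so the signs of their pairs follow in large part from that choice and are given as a description. Over all 243 pairs 108 were positive and the median was −0.04.

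Among the 5 pairs with the lowest p, TRAV14N-3 with TRAJ34 took 0.0249%, 0.0534%, 0.0679% and 0.112% of the STAT3ko libraries and 0.236%, 0.437%, 0.0671% and 0.220% of the STAT3koPD-1ko libraries (log2 fold change 1.22 ± 0.35, limma adjusted p = 0.350). The gut number 1 value of STAT3koPD-1ko lay among the STAT3ko values, and without that library the pair was called (1.61, limma adjusted p = 0.0272). TRAV14D-2 with TRAJ37 took 0.110%, 0.131%, 0.106% and 0.102% in STAT3ko and 0.237%, 0.265%, 0.238% and 0.167% in STAT3koPD-1ko, and these groups did not overlap (0.76 ± 0.24, limma adjusted p = 0.350). TRAV10N with TRAJ43 was at 0.252% ± 0.130 in STAT3ko and 0.495% ± 0.149 in STAT3koPD-1ko, with overlap (0.93 ± 0.31, limma adjusted p = 0.394). Its log2 fold change ran from 0.62 to 1.21 when 1 library at a time was left out. In the other direction, TRAV10 with TRAJ9 took 0.413%, 0.202%, 0.265% and 0.165% in STAT3ko and 0.142%, 0.158%, 0.0902% and 0.0713% in STAT3koPD-1ko, without overlap (−0.89 ± 0.28, limma adjusted p = 0.350). TRAV7D-5 with TRAJ23 had means of 0.227% and 0.0416% (−1.33 ± 0.39, limma adjusted p = 0.350), the STAT3ko values being spread from 0.0696% to 0.527%.

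V segments of TCRA showed no called difference. None of 46 passed (limma, 1 at an unadjusted p below 0.05). That segment was TRAV21/DV12, the tested V segment nearest to the J array, at 1.45% ± 0.19 in STAT3ko and 1.96% ± 0.67 in STAT3koPD-1ko (SD, n = 4 each), with a log2 fold change of 0.36 (limma adjusted p = 0.914). TRAV14-1 and TRAV7D-4, next in p, had log2 fold changes of 0.28 and −0.28. That of TRAV21/DV12 was 0.23 without STAT3koPD-1ko liver number 1 and −0.12 with each clonotype counted once. That of TRAV7D-4 was −0.16, −0.17 and −0.18 without STAT3koPD-1ko liver number 1, STAT3koPD-1ko gut number 1 and STAT3ko gut number 2, and −0.42 without STAT3koPD-1ko gut number 2.

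TCRB showed no called difference in J usage. None (0%) of the 12 TRBJ segments passed, and none had an unadjusted p below 0.05 (limma, lowest adjusted p = 0.776). TRBJ2-7 was the most used, at 18.9%, 18.1%, 15.7% and 19.4% in STAT3ko and 19.0%, 16.5%, 15.6% and 17.1% in STAT3koPD-1ko, with a log2 fold change of −0.08. That value ran from −0.13 to −0.02 when 1 library at a time was left out. TRBJ1-1, at means of 12.5% and 12.3%, TRBJ2-5, at 11.6% and 12.6%, and TRBJ2-4, at 10.1% and 10.3%, differed by log2 fold changes of −0.03, 0.10 and 0.03. TRBJ2-3 (9.50% and 9.42%), TRBJ2-1 (8.88% and 9.19%), TRBJ1-4 (7.45% and 7.79%), TRBJ1-3 (6.99% and 6.80%) and TRBJ2-2 (6.69% and 6.56%) had log2 fold changes from −0.06 to 0.07. The largest log2 fold changes were those of rarer segments, TRBJ1-5 (1.42% and 1.63%, log2 fold change 0.21 ± 0.16) and TRBJ1-6 (2.92% and 2.65%, −0.17 ± 0.15), whereas in percent of reads TRBJ2-7 and TRBJ2-5 differed more. Leaving out 1 library at a time moved the TRBJ1-5 value between 0.09 (without STAT3ko gut number 2) and 0.30 (without STAT3ko gut number 1), and that of TRBJ2-5 between 0.05 (without STAT3koPD-1ko liver number 2) and 0.17 (without STAT3koPD-1ko gut number 2). The TRBJ1-6 value turned direction, to 0.0107, without STAT3koPD-1ko gut number 2, and was −0.26 without STAT3koPD-1ko liver number 2. TRBJ1-2 was at 3.92% and 3.74% (−0.08). The downstream cluster TRBJ2 as a whole took 64.8% ± 2.09 of STAT3ko and 65.0% ± 3.05 of STAT3koPD-1ko libraries (SD, n = 4 each).

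**Figure D4:**
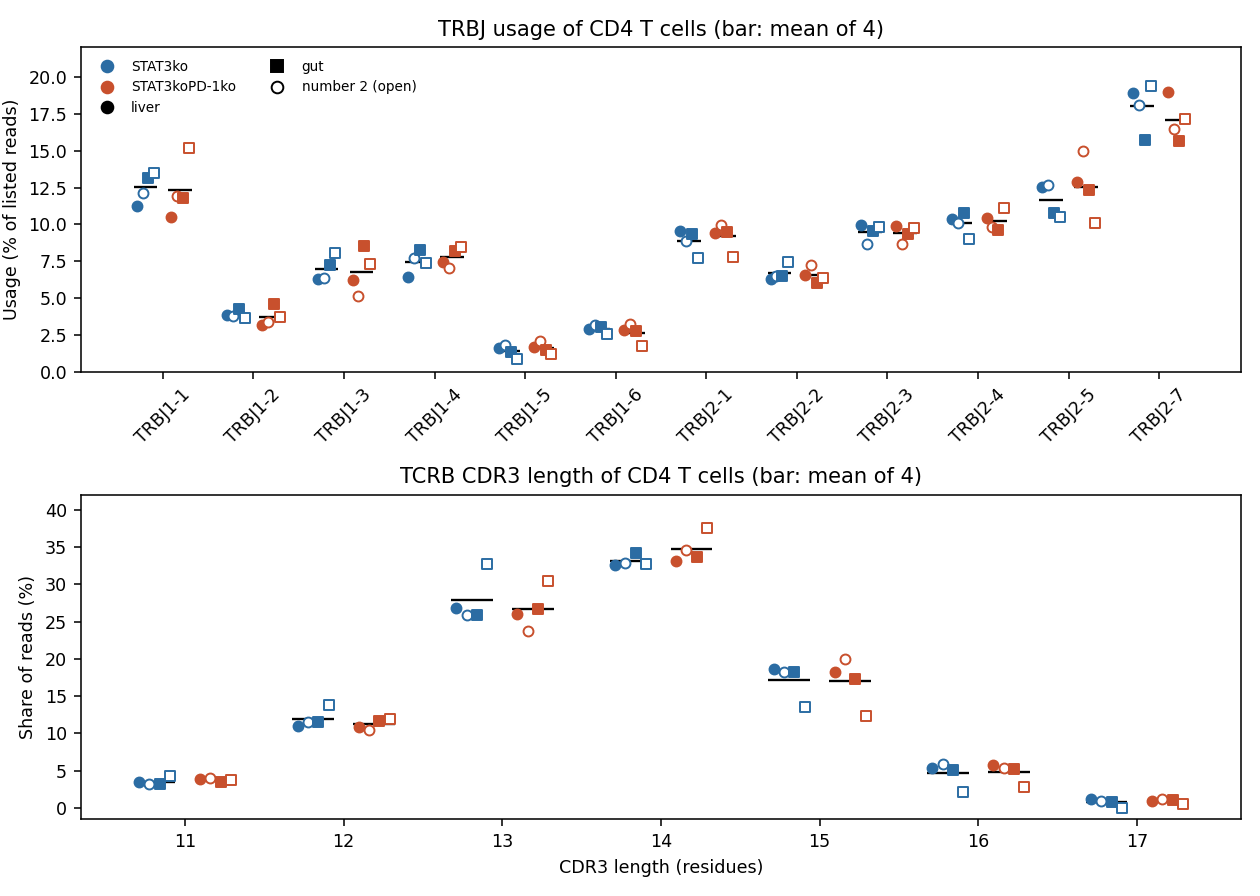
TRBJ usage in percent of listed reads (top) and TCRB CDR3 length in residues as a share of reads (bottom) in each day 6 CD4 library, with circles for liver, squares for gut, open symbols for number 2 and a bar at the mean of 4. STAT3ko and STAT3koPD-1ko overlap in every segment and length, and the gut number 2 libraries of both genotypes hold fewer CDR3s of 15 to 17 residues than the others.

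Among V segments of TCRB, 4 of 21 had an unadjusted p below 0.05 and none passed adjustment (limma). TRBV1, the first segment of the locus, was at 7.62%, 6.12%, 4.04% and 4.13% in STAT3ko and 8.71%, 8.43%, 5.41% and 6.20% in STAT3koPD-1ko, higher in each tissue and number (0.41 ± 0.13, limma adjusted p = 0.148). TRBV2 (1.63% and 2.09% on average, 0.36 ± 0.13, adjusted p = 0.194, limma) and TRBV3 (2.76% and 3.62%, 0.41 ± 0.18, adjusted p = 0.236, limma) lay on the same side, and TRBV12-1 (1.34% and 1.06%, −0.31 ± 0.14, adjusted p = 0.236, limma) on the other. The TRBV3 value ran from 0.27 to 0.59 when 1 library at a time was left out.

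None of 188 V-J pairs of TCRB was called (limma, 19 at an unadjusted p below 0.05, lowest adjusted p = 0.330). TRBV1 with TRBJ1-2 took 0.191%, 0.168%, 0.1002% and 0.109% in STAT3ko and 0.352%, 0.252%, 0.287% and 0.856% in STAT3koPD-1ko, without overlap (1.22 ± 0.33). TRBV15 with TRBJ2-2 took 0.305%, 0.299%, 0.418% and 0.314% in STAT3ko and 0.451%, 0.697%, 0.472% and 1.19% in STAT3koPD-1ko, also without overlap (0.88 ± 0.29). TRBV1 with TRBJ1-4 was at 0.333% ± 0.086 and 0.597% ± 0.135 (0.76 ± 0.25). Lower in STAT3koPD-1ko were TRBV20 with TRBJ1-3, at 0.162% ± 0.053 against 0.0713% ± 0.0224 (−0.79 ± 0.26), and TRBV29 with TRBJ2-4, at 0.329% ± 0.171 against 0.155% ± 0.140 (−1.10 ± 0.36). The value of TRBV29 with TRBJ2-4 ran from −1.35 to −0.70 when 1 library at a time was left out. The limma adjusted p was 0.330 for each of these 5 pairs.

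Clonality, which is 0 when all listed clonotypes are equally frequent and approaches 1 when a clonotype dominates, did not separate the genotypes. In TCRB it was 0.111, 0.0920, 0.0674 and 0.115 in STAT3ko and 0.113, 0.113, 0.0907 and 0.135 in STAT3koPD-1ko. The STAT3koPD-1ko value was the higher in each tissue and number, by 0.00135 in liver 1 and by 0.01999 to 0.0234 in the others, but the groups overlapped (0.0964 ± 0.0218 and 0.113 ± 0.018, SD, n = 4 each, exact two-sided permutation p = 0.389, adjusted p = 0.980). In TCRA it was 0.119, 0.102, 0.0877 and 0.105 in STAT3ko and 0.119, 0.122, 0.101 and 0.0997 in STAT3koPD-1ko, higher in 2 of 4 (exact two-sided permutation p = 0.444). Without STAT3ko gut number 1 the difference was 0.00666 in TCRB and 0.00169 in TCRA, and without STAT3koPD-1ko gut number 2 it was 0.00891 in TCRB. In TCRA it was 0.00298 and 0.00429 without STAT3koPD-1ko liver number 2 and liver number 1, 0.0122 without STAT3ko liver number 1 and 0.0106 without STAT3koPD-1ko gut number 2.

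Diversity was also expressed as an effective number of clonotypes, computed from Shannon entropy, which falls as reads concentrate in fewer clonotypes. It was 4719, 7369, 10930 and 1531 in the TCRB of STAT3ko and 4839, 5221, 8594 and 1139 in that of STAT3koPD-1ko. The range within a genotype, from gut number 2 to gut number 1, was far wider than any difference between the genotypes. In TCRB of STAT3ko and STAT3koPD-1ko, gut number 2 had 3975 and 3418 listed clonotypes and gut number 1 had 21395 and 21224. An effective number cannot exceed the listed number, and the part of this limit in the low values was not tested. In TCRA it was 4313, 6336, 9224 and 2727 in STAT3ko and 4404, 4533, 7451 and 2801 in STAT3koPD-1ko. On the log2 scale the means differed by −0.31 in TCRB (exact two-sided permutation p = 0.50) and by −0.18 in TCRA (p = 0.667, the same exact test). Without STAT3koPD-1ko gut number 2 the TCRB difference was 0.29, and without STAT3ko gut number 1 it was 0.08.

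**Figure D5:**
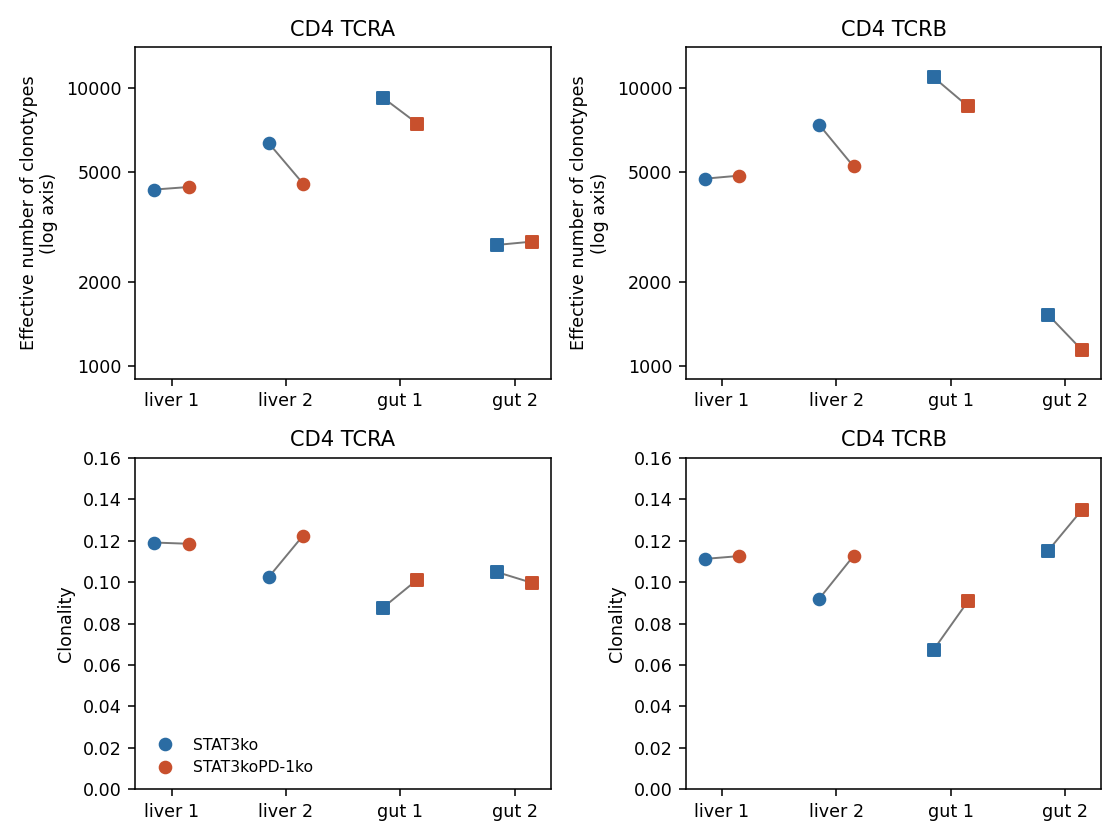
Effective number of clonotypes (top, log axis) and clonality (bottom, no unit) of each CD4 library by tissue and number, with blue for STAT3ko and orange for STAT3koPD-1ko, and lines joining libraries of the same tissue and number. The effective numbers of gut number 1 and gut number 2 lie farther apart than the genotypes do, and in TCRB clonality the STAT3koPD-1ko point is the higher at each tissue and number.

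The 10 leading clonotypes took 3.09%, 2.40%, 2.18% and 7.20% of STAT3ko TCRB and 2.37%, 2.85%, 4.47% and 8.79% of STAT3koPD-1ko TCRB. In TCRA the shares averaged 3.11% ± 1.38 and 3.15% ± 0.51 (SD, n = 4 each). The effective number of V-J pairs was 155, 161, 134 and 116 in STAT3ko and 159, 155, 129 and 111 in STAT3koPD-1ko for TCRB, and 1010, 1148, 1189 and 753 against 1038, 1043, 1159 and 761 for TCRA. None of these differences passed the exact permutation test (lowest adjusted p over the 20 measures 0.980).

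CDR3 length did not differ detectably. The mean length in TCRA was 13.41, 13.40, 13.42 and 13.37 residues in STAT3ko and 13.44, 13.43, 13.41 and 13.33 in STAT3koPD-1ko. In TCRB it was 13.73, 13.72, 13.72 and 13.47 in STAT3ko and 13.74, 13.78, 13.69 and 13.56 in STAT3koPD-1ko, a difference of means of 0.0321 residues (exact two-sided permutation p = 0.556). The gut number 2 libraries were the shortest of both genotypes. None of the 8 lengths tested in TCRA (10 to 17 residues) or the 7 in TCRB (11 to 17 residues) was called, and none had an unadjusted p below 0.05 (limma). CDR3s of 13 residues, the leading length in TCRA, took 33.8% of reads on average in both genotypes, and those of 14 residues, the leading length in TCRB, took 33.1% ± 0.72 and 34.7% ± 2.00. The number of bases between the V and J segments, a measure of D segment and nontemplated bases, was 8.41, 8.19, 8.35 and 7.09 in STAT3ko TCRB and 8.25, 8.48, 8.32 and 7.72 in STAT3koPD-1ko TCRB. In TCRA it was 1.93 ± 0.16 and 1.88 ± 0.19, and the STAT3koPD-1ko library was the lower in each tissue and number, with differences from −0.0996 to −0.00178 bases (exact two-sided permutation p = 0.389).

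Residues were counted in the centre of the CDR3, without the 4 residues at each end. None of 18 residues was called in TCRA (limma, 3 at an unadjusted p below 0.05) and none of 18 in TCRB (1 at an unadjusted p below 0.05). Leucine in TCRA came nearest, at 1.51%, 1.501%, 1.46% and 1.35% in STAT3ko and 1.26%, 1.31%, 1.32% and 1.12% in STAT3koPD-1ko, without overlap (log2 fold change −0.20 ± 0.06, limma adjusted p = 0.0786). With each clonotype counted once, the log2 fold change of leucine was −0.00198. Aspartate (2.74% ± 0.13 and 2.56% ± 0.14), tryptophan (1.06% ± 0.075 and 0.950% ± 0.060) and arginine (2.86% ± 0.11 and 2.66% ± 0.16) were the next in p in TCRA, with log2 fold changes of −0.10, −0.15 and −0.10. The arginine value ran from −0.14 to −0.07 when 1 library at a time was left out. Glycine and asparagine, which the J segments encode in large part, made up 22.8% and 20.8% of central TCRA residues in STAT3ko and 23.1% and 21.5% in STAT3koPD-1ko. In TCRB the lowest p belonged to glutamine, at 7.74% ± 0.34 and 8.19% ± 0.28 (0.08 ± 0.03, limma adjusted p = 0.473), before asparagine (−0.04), lysine (−0.16) and proline (0.06). Leaving out 1 library at a time gave −0.07 to −0.03 for asparagine (the latter without STAT3ko gut number 2), −0.25 to −0.08 for lysine (without STAT3koPD-1ko gut number 1 and gut number 2, with −0.10 without its liver number 1) and 0.00934 to 0.10 for proline (without STAT3ko gut number 2 and gut number 1).

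By class, the acidic residues D and E of TCRA had log2 fold changes of −0.10 and 0.06, the basic K and R −0.01 and −0.10, and all 3 aromatic residues were negative (median −0.10), beside a median of −0.02 over all 18. Of the 5 aliphatic residues, 3 were positive. Of the 4 polar residues 3 were positive in TCRA and 1 in TCRB. In TCRB 2 of 3 basic residues and 2 of 3 aromatic residues were negative and 3 of 4 aliphatic residues were positive. Central hydropathy was −1.32 ± 0.02 and −1.34 ± 0.04 in TCRA and −1.21 ± 0.005 and −1.21 ± 0.03 in TCRB for STAT3ko and STAT3koPD-1ko. Without STAT3koPD-1ko gut number 2, the TCRA difference in hydropathy went from −0.0193 to −0.000575. Net charge per CDR3 was −0.0677 ± 0.0196 and −0.0741 ± 0.0249 in TCRA and −0.366 ± 0.057 and −0.360 ± 0.044 in TCRB. A pair of hydrophobic residues at positions 6 and 7, a feature linked to self-reactive receptors, was present in 1.77% ± 0.32 and 1.63% ± 0.76 of TCRB reads, with 0.606% in STAT3koPD-1ko gut number 2 as the lowest value. No difference in these measures passed the exact permutation test (all adjusted p = 0.980).

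Clonotypes shared by several libraries were compared last. Among 9282 TCRA clonotypes listed in at least 6 of the 12 day 6 libraries, 1 (0.0108%) was called and 881 had an unadjusted p below 0.05, 383 of them higher and 498 lower in STAT3koPD-1ko (limma on log2 of percent + 0.001). Among 4175 TCRB clonotypes none was called (360 at an unadjusted p below 0.05, lowest adjusted p = 0.0822, limma). The called clonotype and those with the lowest p in each direction in TCRB are shown with their nucleotide sequence as listed in the deposited tables, and capitals mark the bases between the end of the V and the start of the J segment. The called alpha chain has no such base, so that its V and J segments meet directly.
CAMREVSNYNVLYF (TRAV16N, TRAJ21): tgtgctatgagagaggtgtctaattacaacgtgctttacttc
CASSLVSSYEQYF (TRBV16, TRBJ2-7): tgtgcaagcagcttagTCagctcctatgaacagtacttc
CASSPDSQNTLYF (TRBV16, TRBJ2-4): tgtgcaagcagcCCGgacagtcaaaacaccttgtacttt

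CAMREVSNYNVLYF was listed at 0 in all 4 STAT3ko libraries and in the STAT3ko spleen library. In STAT3koPD-1ko it took 0.133% and 0.0963% of the liver and 0.0112% and 0.00768% of the gut libraries, and 0.0801% of the spleen library (limma adjusted p = 0.0412). It was also listed in 3 of the 4 WT day 6 libraries, at no more than 0.00612%, and at 0.0495% in the WT spleen library. It reached the minimum of 6 listed libraries only through the 4 STAT3koPD-1ko libraries in which it was high, so that it had to differ once it was tested, and its p supports nothing by itself. The call was lost when any of the 8 libraries other than STAT3koPD-1ko gut number 2 was left out. It was also lost with a minimum of 4 listed libraries, undivided frequencies, the 8 libraries alone, a pseudocount 10 times smaller or the replicate block. No TCRA clonotype was called in any of these settings (limma).

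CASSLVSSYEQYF took 0.0323%, 0.0417%, 0.0151% and 0.106% of the STAT3koPD-1ko libraries and 0.00235% of STAT3ko liver 2, and was listed at 0 in the other STAT3ko libraries of day 6 (limma adjusted p = 0.0822). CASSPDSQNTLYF took 0.0385%, 0.0146%, 0.0185% and 0.0244% of the STAT3ko libraries and 0.00121% of STAT3koPD-1ko gut 1, and was listed at 0 in the other 3 (limma adjusted p = 0.0822). Both also reached the minimum only through the genotype in which they were high. Such clonotypes existed in both directions. Of 47311 TCRA clonotypes listed in any of the 8 libraries, 61 were listed in all 4 STAT3koPD-1ko libraries and in no STAT3ko library. In the other direction, 72 were listed in all 4 STAT3ko libraries and in no STAT3koPD-1ko library. In TCRB these numbers were 44 and 47 of 59589. How many such clonotypes would arise by chance was not tested.

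Some clonotypes were listed in every library of both genotypes. Of 47311 TCRA clonotypes listed in any of the 8 libraries, 1107 were listed in all 8, and they took between 23.0% and 35.1% of the reads of a library. In TCRB 122 of 59589 clonotypes were listed in all 8, with between 1.87% and 8.60% of reads. CAASDYSNNRLTL (TRAV14N-3, TRAJ7), which led STAT3koPD-1ko gut by its mean among alpha chains of 8 to 14 residues, took 0.0587%, 0.0897%, 0.227% and 0.334% of the STAT3koPD-1ko libraries and 0.172%, 0.161%, 0.318% and 0.400% of the STAT3ko libraries. The beta chain chosen by the same rule, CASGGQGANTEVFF (TRBV13-2, TRBJ1-1), took 1.31% of STAT3koPD-1ko gut 2 but 0.00242% of gut 1, and its place rests on that library.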

How the data were processed

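TCR-CDR3 transcripts of sorted donor T cells were sequenced by the authors, who called clonotypes with MiXCR and joined the libraries of a chain and cell type with VDJtools. The deposited values used here are fractions of the reads of a library, formed by the authors before a join that kept clonotypes found in at least 2 of 18 libraries. The tables hold 15 library columns each, and 0 columns belonged to samples outside the labels. Columns were matched to samples by genotype, tissue, cell type, chain and number. The other deposited measure, the number of libraries with a clonotype, served as a filter. No read counts are given, so depth is unknown and no interval was computed.

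Frequencies were divided by the listed share of each library. CDR3s that began upstream of the conserved cysteine (21.3% of TCRB clonotypes) were trimmed to it. Usage of segments, pairs, lengths and central residues entered limma (version 3.58.1, R 4.3.3) as log2(percent + 0.1) (pairs 0.05, clonotypes 0.001), with tissue and genotype in a fit of the 12 day 6 libraries, which share 1 estimate of the spread, for features with a mean of at least 0.5% (pairs 0.1%). Fold changes on this scale understate those of rare features. P-values were adjusted by the Benjamini-Hochberg method within a family and table. The 10 measures per library of each chain were compared by exact two-sided permutation within tissue (36 arrangements) and adjusted over 20. The smallest p this allows is 0.0556. Named were all called features and otherwise the 3 V segments, 4 J segments, 5 pairs and 4 residues with the lowest p, all TRBJ segments, and clonotypes by mean, sharing and p with a CDR3 of 8 to 14 residues. The members, lists and tests were chosen with earlier results of these data known. CD8 TCRA was added for J usage after the files had been seen. The fits were checked on simulated usages with known changes. Positions of 119 of 119 segments came from GENCODE (GRCm38). Alternatives were other weights, filters and pseudocounts, a replicate block and leaving out libraries. The study describes 2 batches with 3 mice pooled in each, but does not say which number belongs to which batch or whether liver and gut of a number came from the same mice. If they did, the 4 libraries of a genotype stem from 2 pools, and p-values over 4 libraries are too small.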

Additional observations from a re-analysis of the deposited data

Results flagged for a closer look

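In groups of 4 libraries, the highest or lowest value was compared with the rest by Dixon's criterion. Chance alone marks about 1 in 20 groups, and 5 of 124 were marked here.

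STAT3ko gut number 2 had the shortest TCRB CDR3s of its group, 13.47 residues on average, with 7.09 bases between V and J, where the other 3 STAT3ko libraries had at least 13.72 residues and 8.19 bases. Its listed share of reads was 49.1%, and the part of this in the difference was not tested. TRAJ56 took 3.71% of STAT3koPD-1ko gut number 1, far from the other 3 libraries of that genotype. TRBV1 with TRBJ1-2 took 0.856% of STAT3koPD-1ko gut number 2, and TRBV15 with TRBJ2-2 took 0.418% of STAT3ko gut number 1, each standing apart from its group.

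TRBJ2-2 moved in opposite directions in the tissues. The mean difference between STAT3koPD-1ko and STAT3ko was 0.493 percentage points in liver and −0.748 in gut, with every library on the side of its tissue, and the interaction of genotype and tissue did not pass (limma adjusted p = 0.789).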

How the results depend on the processing

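The files give no counts, so what depth limits cannot be stated, and with 4 libraries per genotype the exact tests could not reach the threshold. Whether same-numbered libraries deviated together was mixed. Over V segments r of the deviations was −0.15 (TCRA) and −0.29 (TCRB) in liver and 0.59 and 0.50 in gut, and over J segments 0.23 and 0.45 in liver and −0.09 and 0.44 in gut. Since not every r was above 0.1, the numbers are not taken as pairs. With the replicate block, 6 TRAJ segments were called, 1 TCRA residue (leucine, limma adjusted p = 0.00176) and 0 TCRA clonotypes, and the smallest exact p was 0.125. For TRAJ, 0 segments were called with each clonotype counted once, 3 without the 100 leading clonotypes, 2 without the gut number 1 libraries and 1 without the liver number 1 libraries, the last 3 settings having been chosen after seeing the data. In TCRB V usage 2 of 21 segments (TRBV1 and TRBV3) were called with clonotypes in at least 3 libraries and 1 of 28 (TRBV1) with no filter. With no filter 2 of 3809 TCRA pairs were called (TRAV12-3 with TRAJ28 and TRAV5-4 with TRAJ43), in a setting that also tests pairs used at less than 0.1%. With each clonotype counted once 1 of 17 TCRA residues (tryptophan) was called. The called TCRA clonotype was lost (0 calls) with clonotypes of at least 4 libraries, undivided frequencies, the 8 libraries alone or a pseudocount 10 times smaller. In TCRB, 6 of 10924 clonotypes were called with clonotypes of at least 4 libraries. The 4 libraries of 1 genotype can meet that minimum alone, so these calls support nothing by themselves. Counting each clonotype once reversed the small differences of mean CDR3 length (TCRA −0.00929, TCRB −0.0300), effective V-J pairs (TCRA 0.00167, log2), TCRB hydropathy (−0.000177), bases between V and J (TCRB −0.146), TRBJ2 share (−0.241 percentage points), TRAV21/DV12 (−0.12), TRAJ18 (0.0125), aspartate in TCRA (0.01), and asparagine (0.00387) and lysine (0.00567) in TCRB. Without trimming, TCRB hydropathy was −0.000690, and with 3 residues left out at each end TCRA net charge was 0.0159. The cause of these changes was not tested.

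Leaving out each library in turn gave 4 to 8 TRAJ calls (4 without STAT3ko liver 2 or STAT3koPD-1ko liver 1, 8 without STAT3koPD-1ko gut 2), 0 to 1 for TCRA pairs (1 without STAT3koPD-1ko gut 1), 0 to 1 for TCRA residues (1 without STAT3ko liver 1 or STAT3koPD-1ko gut 1), 0 to 1 for TCRA clonotypes and 0 to 3 for TCRB clonotypes (3 without STAT3koPD-1ko gut 2). The differences ranged as follows in TCRA, from −0.484 to 0.102 for effective clonotypes (log2), −0.171 to 0.0959 for effective pairs, 0.00169 to 0.0122 for clonality, −0.367 to 0.621 for the 10 leading clonotypes, −0.0111 to 0.0242 for length, −0.0159 to 0.00433 for charge, −0.0313 to −0.000575 for hydropathy, −0.245 to 0.208 for the doublet and −0.129 to 0.0434 for bases between V and J. In TCRB they ranged from −0.869 to 0.291 for effective clonotypes, −0.126 to 0.0645 for effective pairs, 0.00666 to 0.0237 for clonality, −0.491 to 2.06 for the 10 leading clonotypes, −0.0313 to 0.0765 for length, −0.0138 to 0.0268 for charge, −0.00930 to 0.0117 for hydropathy, −0.405 to 0.197 for the doublet, −0.126 to 0.337 for bases, −0.791 to 1.204 for the TRBJ2 share, −0.26 to 0.0107 for TRBJ1-6, 0.09 to 0.30 for TRBJ1-5 and 0.05 to 0.17 for TRBJ2-5. Dividing by the listed share does not apply to central residues.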

Other observations

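BALB/c recipients carry endogenous mouse mammary tumour viruses whose superantigens bind T cells through certain V beta segments. The TRBV segments of this kind are TRBV26, TRBV12-1, TRBV12-2, TRBV15 and TRBV16. Of these 5, none was called between the genotypes (limma, 1 at an unadjusted p below 0.05), 2 had a positive log2 fold change and 3 a negative one, and the median was −0.07, as it was over all 21 segments tested. Together they took 30.1%, 32.1%, 42.5% and 49.4% of the STAT3ko libraries (liver 1, liver 2, gut 1, gut 2) and 30.6%, 31.6%, 46.2% and 44.0% of the STAT3koPD-1ko libraries. TRBV26, which encodes V beta 3, stood at 8.18% and 8.99% of STAT3ko liver and 25.97% and 24.8% of STAT3ko gut, and at 7.12% and 8.15% of STAT3koPD-1ko liver and 28.0% and 22.6% of STAT3koPD-1ko gut. TRBV12-1, which encodes a V beta 5 segment, was at 1.34% ± 0.32 in STAT3ko and 1.06% ± 0.22 in STAT3koPD-1ko (SD, n = 4 each, log2 fold change −0.31, limma adjusted p = 0.236).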
